A study of Mus musculus with 21 samples.

Results

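The genes described are the subunits of the mitochondrial oxidative phosphorylation complexes that are encoded in the nucleus, complexes I to V. Members were found by gene symbol: symbols starting with *Nduf* (assembly factors starting with *Ndufaf* were left out), *Uqcr* or *Atp5*, the succinate dehydrogenase genes *Sdha* to *Sdhd*, *Cyc1*, and the cytochrome c oxidase genes *Cox4i1*, *Cox4i2*, *Cox5a*, *Cox5b* and those of the *Cox6*, *Cox7* and *Cox8* families. Of the 21654 genes in the table, 87 carried such a symbol, and the 78 that averaged 50 or more reads per library were tested: 36 of 36 of complex I, 4 of 4 of complex II, 9 of 9 of complex III, 13 of 19 of complex IV and 16 of 19 of complex V. Just above the minimum were *Cox6a2* with a mean of 71.2 reads, *Ndufb4* with 88.8 and *Atp5s* with 167. Below it were *Cox6b2* (49.6 reads), *Ndufa4l2* (35.2), *Cox7a1* (33.8), *Cox4i2* (28.8), *Atp5l* (8.24), *Cox7b2* (1.24), *Cox8b* (1.14), *Atp5l2* (0.57) and *Atp5l-ps1* (0.05). *Ndufa4* and *Ndufa4l2* were counted in complex IV, to which their proteins are now assigned. *Atp5s*, *Atp5sl* and *Cox7a2l* came in by symbol although their products are not structural core subunits, and without them 75 members remained.

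PolyA RNA of the circumventricular hypothalamus, the ventral tissue around the third ventricle, was sequenced from male mice, 12 to 14 weeks old on arrival. The sample labels give the strain as C57/BL6 and the paper as C57BL/6J. RC NoDS mice ate regular chow (RC) throughout and HFD NoDS mice a high-fat diet (HFD) throughout, where NoDS stands for no diet switch. RC → HFD mice changed from long-term RC to HFD, and HFD → RC mice from long-term HFD to RC, each for an acute period before tissue was taken. Every library was a pool of punches from 2 mice of a group, and mice of all 4 groups were kept awake with unfamiliar objects for 3 hours and killed in the middle of the light phase, at zeitgeber hour 6. There were 5 libraries of RC NoDS, 6 of RC → HFD, 5 of HFD → RC and 5 of HFD NoDS. HFD NoDS relative to RC NoDS compares the unswitched diets, and HFD → RC relative to RC → HFD compares the groups that had swapped diets.

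The 21 libraries held 16380781 to 16390598 reads each, because the authors had re-sampled them to a common depth. At equal depth the libraries still differed in complexity: among 3116 low genes, with mean reads from 5 up to 50, some were missed altogether. The percent of them at 0 reads was 3.22 ± 2.42 (SD) in RC NoDS, 11.9 ± 8.82 in RC → HFD, 16.5 ± 10.3 in HFD → RC and 16.3 ± 9.93 in HFD NoDS. The least complex library was HFD NoDS replicate 20, at 32.9%. Mean complexity therefore differed between diet groups. All 5 RC NoDS libraries, at 1.12% to 7.22%, lay below all 5 HFD NoDS libraries, at 7.70% to 32.9%. In that comparison complexity and diet cannot be told apart, also where complexity is a covariate. Apart from a fit with this percent as a covariate and a fit without the 4 least complex libraries, the part of complexity was not tested. The latter fit was chosen after seeing the data. It left out RC → HFD replicate 12, HFD → RC replicates 14 and 17 and HFD NoDS replicate 20.

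Of 13 genes listed for the ventral hypothalamus, 12 averaged 50 or more reads, with *Pomc*, the melanocortin precursor, the most abundant at a mean of 8304 reads. The list also holds *Hcrt*, which the authors used as a gene of the lateral hypothalamus, a region the punches were meant to leave out. All 11 neuronal markers, 10 of 10 astrocyte, 10 of 10 oligodendrocyte, 10 of 10 microglial and 10 of 10 endothelial and pericyte markers also passed 50 reads. The same held for 9 of 10 ependymal and tanycyte markers, 2 of 8 of choroid plexus, 5 of 5 of blood and 4 of 6 of pituitary. In punches of such mixed tissue, fewer cells of a type and less RNA per cell cannot be told apart.

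In oxidative phosphorylation, complex I takes electrons from NADH and complex II takes them from succinate, and both hand them to coenzyme Q. Complex III passes them on to cytochrome c, complex IV gives them to oxygen, and complex V uses the proton gradient built along the way to make ATP. Most subunits are encoded in the nucleus and imported, while a small set of complexes I, III, IV and V is encoded by mitochondrial DNA; neurons depend on this supply to restore ion gradients. The table had no entry for any of the 13 mitochondrial DNA-encoded subunits, and the balance of both genomes was not analysed here.

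Transcript levels of the subunits spanned a wide range, given as mean reads per kb of transcript so that genes can be compared. The catalytic β subunit of ATP synthase, *Atp5b*, had the highest level at 10365 reads per kb. It was followed by *Cox4i1*, the largest nuclear-encoded subunit of complex IV, at 9771 reads per kb, and by *Cox8a*, a small subunit of the same complex, at 9122. *Atp5a1*, the α subunit of ATP synthase, reached 6716 reads per kb, *Uqcrh*, the hinge protein of complex III, 6618, and *Cox6b1*, at the interface of complex IV dimers, 6483. Among the 78 that averaged 50 or more reads, the lowest levels were those of *Ndufb4* at 91.4 reads per kb, *Cox6a2* at 108 and *Atp5s* at 113. Reads that map to several places can be shared out in ways the authors did not state, so levels of genes with near-identical copies, such as *Atp5l* beside *Atp5l2* and *Atp5l-ps1*, are uncertain, and the low level of *Ndufb4* may be affected too.

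Together the 78 subunits took 1.14% to 1.28% of the reads of a library. Summed reads of complex I were 58395 ± 2666 (mean ± SD) in RC NoDS, 57575 ± 2375 in RC → HFD, 58358 ± 2555 in HFD → RC and 57719 ± 1677 in HFD NoDS. Complex II summed to 14560.4 ± 677, 14301 ± 524, 14634 ± 504 and 14392 ± 688 reads in the same order of groups. These group means differed by less than the spread between libraries of a group. Complex III summed to 22336 ± 882, 21548 ± 728, 21651 ± 860.4 and 21774 ± 1382 reads, again in that order. Complex IV gave 35316 ± 1708, 34131 ± 1059, 35460.4 ± 1452 and 35759 ± 1557 reads. Complex V gave 67183 ± 2672, 66319.5 ± 2265, 67288 ± 1805 and 66840.4 ± 1611 reads. In each of the 5 complexes the sums of the 4 groups overlapped, and RC → HFD had the lowest mean.

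**Figure D1:**
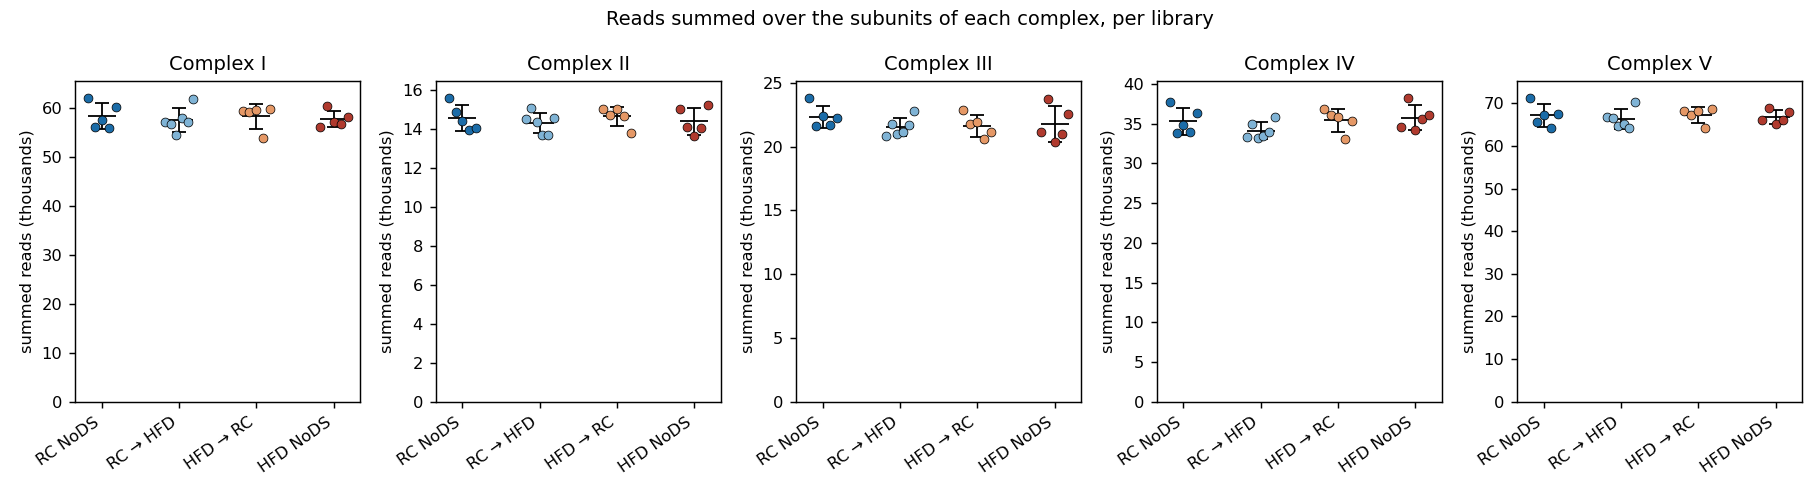
Reads summed over the subunits of each complex (vertical axis from 0, in units of 1000 reads), with 1 point per library and a bar and whiskers for the mean ± SD of each diet group. In each panel the points of the 4 groups overlap.

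The level of each subunit was compared between groups with edgeR's quasi-likelihood test, fitted to all 12768 genes averaging 50 or more reads, and a gene was called at an adjusted p under 0.15. Between HFD NoDS and RC NoDS, the test called 0 of the 78 subunits, beside 0.0783% of all genes, and 8 subunits had an unadjusted p under 0.05 (10.3% of them, beside 7.41% of all genes). DESeq2 and limma-voom also called 0, with 7 and 6 subunits at an unadjusted p under 0.05. Of the 8, *Ndufa11* and *Cox4i1* were higher in HFD NoDS, and *Ndufs1*, *Ndufs4*, *Uqcrb*, *Cox6c*, *Ndufa4* and *Atp5j* were lower. No subunit had libraries of these groups that did not overlap after scaling by TMM, beside 0.963% of all genes. The median log2 fold change of the subunits was 0.0074, beside 0.0065 over all genes, and it took the other sign in 6 of 34 alternative settings. Here and below, such settings include leaving out each library in turn, also libraries of groups not compared. They are not independent of one another, and their count does not measure stability.

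Between HFD → RC and RC → HFD, edgeR called 0 subunits, beside 0.00783% of all genes, with 1 at an unadjusted p under 0.05 (1.28%, beside 5.35% of all genes). DESeq2 gave 0 called and 2 at an unadjusted p under 0.05, and limma-voom 0 and 1. The single gene was *Atp5g2*, lower in HFD → RC. Again 0 subunits had libraries that did not overlap, beside 0.47% of all genes. 44 subunits were higher and 34 lower in HFD → RC, with a median log2 fold change of 0.021 beside 0.00012 over all genes, which took the other sign in 2 of 34 alternative settings. These tests had a median standard error of 0.088 for a subunit's log2 fold change between HFD NoDS and RC NoDS, and of 0.13 for all genes. An adjusted p that misses the threshold does not show that levels did not differ.

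**Figure D2:**
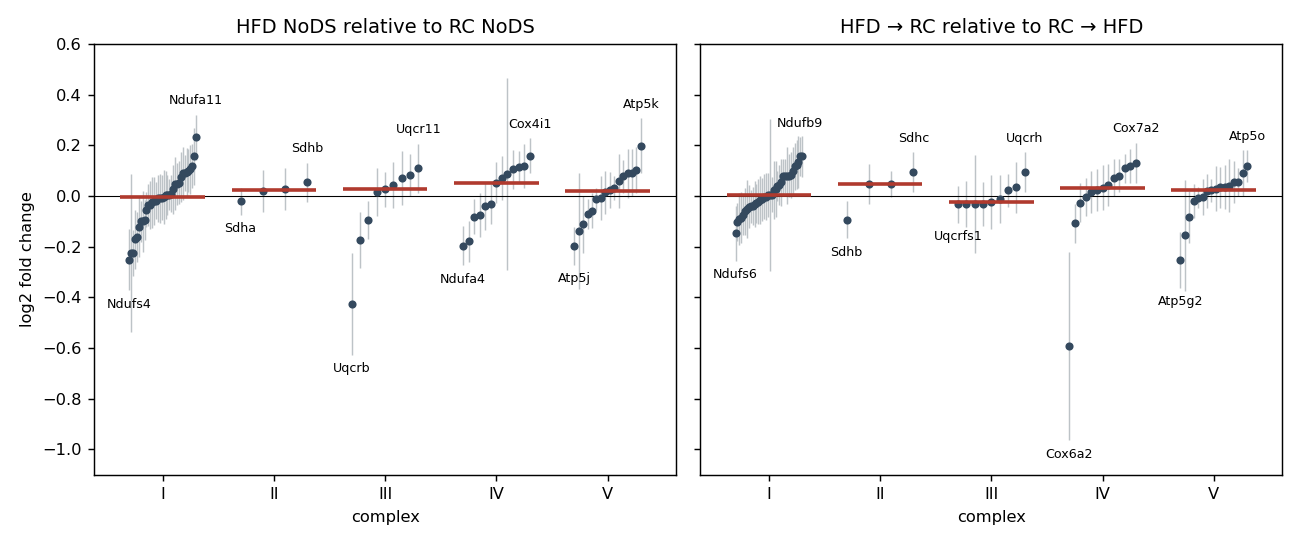
Log2 fold change (vertical axis) of each tested subunit by complex (horizontal axis) in the 2 comparisons, with whiskers for the standard error and red lines for the median of a complex; the highest and lowest subunit of each complex are named. Medians lie near 0, between −0.024 and 0.053.

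In complex I, 17 of 36 subunits were higher and 19 lower in HFD NoDS than in RC NoDS, with a median log2 fold change of −0.0047 that took the other sign in 4 of 35 alternatives. *Ndufs1*, the largest subunit of the arm that oxidises NADH and a carrier of iron-sulphur clusters, had 2727, 2806, 2442, 2079 and 2147 reads in the RC NoDS libraries and 2080, 1927, 1956, 1945 and 2394 in HFD NoDS. It had 2450, 2027, 2243, 2527 and 2175 reads in HFD → RC and 1981 to 2756 reads (median 2230) in RC → HFD. RC NoDS replicates 1, 2 and 3 lay above all HFD NoDS libraries, while replicates 5 and 6 lay within their range. *Ndufs1* had a log2 fold change of −0.23 ± 0.092 (SE) in HFD NoDS relative to RC NoDS, with adjusted p = 0.657 in edgeR's quasi-likelihood test with Benjamini-Hochberg adjustment, and of −0.10 with complexity as a covariate. Between the switched groups its log2 fold change was −0.003.

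*Ndufs4*, an accessory subunit of the same arm whose loss in mice causes a Leigh-like encephalopathy, was the lowest of complex I in HFD NoDS relative to RC NoDS. Its libraries had 1272, 990, 1020, 775 and 853 reads in RC NoDS and 681, 825, 712, 903 and 948 in HFD NoDS. In HFD → RC they had 869, 919, 899, 1105 and 952 reads, and in RC → HFD 735 to 1022 reads (median 919.5). RC NoDS replicate 1 was the highest of all 21 libraries, and the groups overlapped. The log2 fold change of *Ndufs4* was −0.25 ± 0.12 (SE), with adjusted p = 0.66 in edgeR's quasi-likelihood test with Benjamini-Hochberg adjustment. It was −0.15 without RC NoDS replicate 1 and −0.054 after each library's trend on transcript length and GC content was removed.

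*Ndufa11*, an accessory subunit of the membrane arm, was the highest of complex I in the same comparison. Its reads were 1580, 1538, 1553, 1457 and 1807 in RC NoDS and 1825, 2258, 1695, 1811 and 1598 in HFD NoDS. They were 1634, 1658, 1650, 1545 and 1604 in HFD → RC and 1482 to 1891 reads (median 1600) in RC → HFD. HFD NoDS replicate 20 stood highest, RC NoDS replicate 6 reached into the HFD NoDS values, and the groups overlapped. *Ndufa11* had a log2 fold change of 0.23 ± 0.089 (SE), with adjusted p = 0.646 in edgeR's quasi-likelihood test with Benjamini-Hochberg adjustment. Without HFD NoDS replicate 20, the least complex library, it was 0.14, and with complexity as a covariate 0.11.

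Further subunits of complex I that carry electrons or lie on their way are given as group means. *Ndufv1*, which binds NADH and the flavin, had 2779 ± 241 reads (mean ± SD) in RC NoDS, 2793 ± 149.6 in RC → HFD, 2879.6 ± 151 in HFD → RC and 2835 ± 394 in HFD NoDS. *Ndufv2*, its iron-sulphur partner, had 2066 ± 369, 1892 ± 179, 2028 ± 46.4 and 1825 ± 249 reads in that order. The spread of *Ndufv2* in RC NoDS was wide, with replicate 1 at the top and replicate 6 at the bottom of the group. *Ndufs7*, which holds the last iron-sulphur cluster before coenzyme Q, had 1892 ± 157, 1905 ± 129.8, 1777 ± 161 and 1874 ± 88 reads. *Ndufs8*, with iron-sulphur clusters of its own, had 1419 ± 80.9, 1384 ± 71.8, 1462 ± 72.8 and 1411 ± 79.4 reads. *Ndufs3*, a core subunit of the arm that leads to coenzyme Q, had 1197 ± 90.8, 1202 ± 141, 1201 ± 77 and 1174 ± 136 reads. For each of these genes the libraries of the 4 groups overlapped.

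Between HFD → RC and RC → HFD, 19 of the 36 subunits of complex I were higher and 17 lower in HFD → RC, with a median of 0.003 that took the other sign in 6 of 35 alternatives. The highest, *Ndufb9*, an accessory subunit of the membrane arm, had 2241, 2462, 2312, 1750 and 2285 reads in HFD → RC and 1868 to 2182 reads (median 1958) in RC → HFD. In RC NoDS it had 2109, 1898, 2030, 1826 and 2147 reads and in HFD NoDS 1798, 1874, 2088, 1789 and 2101. All HFD → RC libraries apart from replicate 16 lay above every library of the other groups, and replicate 16 lay below them all. *Ndufb9* had a log2 fold change of 0.16 ± 0.078 (SE) between the switched groups, with adjusted p = 0.942 in edgeR's quasi-likelihood test with Benjamini-Hochberg adjustment, and without HFD → RC replicate 16 it was 0.23. The lowest, *Ndufs6*, a zinc-binding accessory subunit needed to complete the NADH-oxidising arm, had 1197, 926, 1012, 813 and 993 reads in HFD → RC and 993 to 1344 reads (median 1046) in RC → HFD. The groups overlapped, with RC → HFD replicate 12 the highest of its group, and the log2 fold change of *Ndufs6* was −0.15 ± 0.11 (SE). It was −0.075 without that library and −0.042 without the 4 least complex libraries.

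Complex II is the succinate dehydrogenase of the citric acid cycle. *Sdha*, the flavoprotein that oxidises succinate, had 9359, 9246, 8635, 8329 and 8361 reads in RC NoDS and 8961, 8054, 8216, 8421 and 9080 in HFD NoDS. *Sdhb*, the iron-sulphur subunit, had 2359, 2084, 2348, 2214 and 2302 reads in RC NoDS and 2657, 2348, 2232, 2109 and 2247 in HFD NoDS. For both genes the ranges of the groups overlapped. Their log2 fold changes were −0.021 ± 0.053 (SE) for *Sdha* and 0.055 ± 0.077 (SE) for *Sdhb*, the lowest and the highest of complex II in HFD NoDS relative to RC NoDS. *Sdhc*, a membrane anchor, had 1917 ± 93.3 reads (mean ± SD) in RC NoDS, 1879.7 ± 215 in RC → HFD, 2007 ± 155 in HFD → RC and 1919.8 ± 145 in HFD NoDS. *Sdhd*, the other anchor, had 1596 ± 188, 1542 ± 146, 1593 ± 80.7 and 1607 ± 133 reads. Between the switched groups, *Sdhc* was the highest with a log2 fold change of 0.094 ± 0.079 (SE) and *Sdhb* the lowest with −0.093 ± 0.074 (SE). *Sdhb* had −0.049 without RC → HFD replicate 12 and 0.032 without the 4 least complex libraries. The median of the 4 subunits was 0.025 in HFD NoDS relative to RC NoDS, with the other sign in 1 of 34 alternatives. Between the switched groups it was 0.048, with the other sign in 0 of 34, and ranged from 0.028 to 0.07 when 1 library was left out.

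In complex III, 6 of 9 subunits were higher and 3 lower in HFD NoDS than in RC NoDS, with a median of 0.026 that took the other sign in 5 of 34 alternatives. The lowest was *Uqcrb*, a small subunit on the matrix side that is needed to assemble the complex. It had 1521, 1295, 1138, 713 and 686 reads in RC NoDS and 698, 494, 702, 915 and 1125 in HFD NoDS. In HFD → RC it had 910, 837, 823, 1130 and 556 reads, and in RC → HFD 734 to 1164 reads (median 825). RC NoDS replicates 1, 2 and 3 lay above all HFD NoDS libraries, replicate 3 narrowly, while replicates 5 and 6 lay among the lower HFD NoDS values. *Uqcrb* had a log2 fold change of −0.43 ± 0.20 (SE), with adjusted p = 0.657 in edgeR's quasi-likelihood test with Benjamini-Hochberg adjustment. It was −0.27 without RC NoDS replicate 1 and −0.082 with complexity as a covariate.

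*Uqcrc2*, a core protein of complex III, had 4279, 4342, 4021, 3096 and 2937 reads in RC NoDS and 3016, 3249, 2862, 3409 and 3799 in HFD NoDS. Replicates 1, 2 and 3 again lay above all HFD NoDS libraries, and replicates 5 and 6 low among them. Its log2 fold change was −0.17 ± 0.11 (SE), and −0.019 after the trend on length and GC content was removed. *Uqcrc1*, the other core protein, had 4506 ± 189 reads (mean ± SD) in RC NoDS, 4395 ± 222 in RC → HFD, 4468 ± 399.7 in HFD → RC and 4529.8 ± 268 in HFD NoDS. *Cyc1*, cytochrome c1, had 2660.2 ± 179, 2881 ± 253, 2822 ± 256 and 2702 ± 389 reads. *Uqcrfs1*, the Rieske iron-sulphur protein, had 2279 ± 231, 2109.7 ± 128, 2065 ± 166 and 2107 ± 158 reads. For each of these 3 genes the libraries of the 4 groups overlapped. *Uqcr11*, a small subunit, was the highest of complex III in HFD NoDS relative to RC NoDS with a log2 fold change of 0.11 ± 0.098 (SE), which was 0.048 with complexity as a covariate and 0.03 after the trend on length and GC content was removed. The highest between the switched groups was *Uqcrh* with 0.094 ± 0.079 (SE) and the lowest *Uqcrfs1* with −0.033 ± 0.072 (SE). *Uqcrh* had 0.038 without HFD → RC replicate 17, and *Uqcrfs1* −0.0027 without RC → HFD replicate 12. The median between the switched groups was −0.024, with the other sign in 5 of 34 alternatives.

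Complex IV had the highest median of the 5 complexes in HFD NoDS relative to RC NoDS, 0.053, which was below 0 in 4 of 35 alternatives, and was −0.044 both without HFD NoDS replicate 20 and without the 4 least complex libraries. Of its 13 tested subunits 7 were higher and 6 lower in HFD NoDS. *Cox4i1*, which carries a site where ATP slows the enzyme, had 6719, 6187, 5920, 6121 and 7073 reads in RC NoDS and 6794, 8285, 6792, 6631 and 6775 in HFD NoDS. In HFD → RC it had 7256, 6949, 6806, 5939 and 7281 reads, and in RC → HFD 6057 to 6555 reads (median 6268). HFD NoDS replicate 20 stood far above the others of its group, and RC NoDS replicate 6 lay above the remaining HFD NoDS libraries. All 5 HFD NoDS libraries lay above all RC → HFD libraries in reads, though not after edgeR's scaling of library totals (TMM). *Cox4i1* had a log2 fold change of 0.16 ± 0.069 (SE) in HFD NoDS relative to RC NoDS, with adjusted p = 0.657 in edgeR's quasi-likelihood test with Benjamini-Hochberg adjustment. It was 0.086 without HFD NoDS replicate 20 and 0.074 with complexity as a covariate. Its log2 fold change between the switched groups was 0.12 ± 0.066 (SE).

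*Ndufa4*, first assigned to complex I and later found in complex IV, had 3543, 3185, 2842, 2665 and 2624 reads in RC NoDS and 2354, 2317, 2611, 2712 and 2801 in HFD NoDS. In HFD → RC it had 2858, 2792, 2788, 2675 and 2463 reads, and in RC → HFD 2471 to 3013 reads (median 2708). RC NoDS replicates 1, 2 and 3 lay above all HFD NoDS libraries and replicates 5 and 6 within them. *Ndufa4* was the lowest of complex IV in HFD NoDS relative to RC NoDS, with a log2 fold change of −0.20 ± 0.077 (SE) and adjusted p = 0.657 in edgeR's quasi-likelihood test with Benjamini-Hochberg adjustment. It was −0.098 with complexity as a covariate and −0.058 after the trend on length and GC content was removed. Counted in complex I, it left the median of complex I at −0.0068 and that of complex IV at 0.062 in this comparison.

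*Cox6c*, a small membrane-spanning subunit, had 2632, 2134, 2035, 2004 and 2008 reads in RC NoDS and 1760, 1938, 1806, 1896 and 2033 in HFD NoDS. In HFD → RC it had 1982, 1824, 1898, 1901 and 1923 reads, and in RC → HFD 1841 to 2431 reads (median 1998). All 5 HFD → RC libraries lay below all 5 of RC NoDS, and RC NoDS replicate 1 was far above the rest of its group. It was the 1 subunit of 78 whose libraries did not overlap in HFD → RC relative to RC NoDS, beside 1.35% of all genes. *Cox6c* had log2 fold changes of −0.18 ± 0.081 (SE) in HFD NoDS and −0.16 ± 0.081 (SE) in HFD → RC, both relative to RC NoDS and so sharing its libraries, with adjusted p = 0.657 and 0.641 in edgeR's quasi-likelihood test with Benjamini-Hochberg adjustment. Without RC NoDS replicate 1 these were −0.10 and −0.081.

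*Cox5a* and *Cox5b* encode peripheral subunits of complex IV. *Cox5a* had 2098 ± 307 reads (mean ± SD) in RC NoDS, 2051 ± 199.9 in RC → HFD, 2099 ± 212 in HFD → RC and 2014 ± 171 in HFD NoDS. *Cox5b* had 2708 ± 280.2, 2761 ± 305, 2807 ± 278 and 2900.4 ± 129 reads. Between the switched groups the highest of complex IV was *Cox7a2*, a small membrane subunit, with a log2 fold change of 0.13 ± 0.079 (SE), and the lowest was *Cox6a2* with −0.59 ± 0.37 (SE). *Cox6a2* had 90, 60, 23, 57 and 18 reads in HFD → RC and 53 to 120 reads (median 69) in RC → HFD. The low mean came from HFD → RC replicates 15 and 17, while the other replicates of that group lay within the range of RC → HFD. The median of complex IV between the switched groups was 0.033, with the other sign in 0 of 35 alternatives. It ranged from 0.0082 to 0.078 when 1 library was left out.

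Complex V is the ATP synthase, and its α and β subunits had the smallest spread within groups of the 78 subunits. *Atp5a1* had 17960, 16796, 17188, 16602 and 16179 reads in RC NoDS and 16678, 17031, 15683, 16534 and 16929 in HFD NoDS. *Atp5b*, which holds the catalytic sites, had 20603, 19334, 19486, 18064 and 20063 reads in RC NoDS and 19418, 19495, 19492, 19552 and 20494 in HFD NoDS. The ranges of the groups overlapped for both genes. Log2 fold changes in HFD NoDS relative to RC NoDS were −0.013 ± 0.044 (SE) for *Atp5a1* and 0.032 ± 0.047 (SE) for *Atp5b*, and their coefficients of variation within groups were 2.93% and 4%. *Atp5c1*, the rotating central stalk, had 3285 ± 506 reads (mean ± SD) in RC NoDS, 3045 ± 319.8 in RC → HFD, 3165 ± 173 in HFD → RC and 3224 ± 288 in HFD NoDS, and the libraries of the groups overlapped.

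*Atp5j*, coupling factor 6 of the outer stalk, had the smallest p of the subunits in HFD NoDS relative to RC NoDS. It had 2679, 2625, 2485, 2245 and 2313 reads in RC NoDS and 1979, 2028, 1975, 2344 and 2311 in HFD NoDS. In HFD → RC it had 1994, 2226, 2335, 2411 and 2505 reads, and in RC → HFD 2132 to 2582 reads (median 2241). RC NoDS replicates 1, 2 and 3 lay above all HFD NoDS libraries, and HFD NoDS replicates 19, 20 and 21 lay below all of RC NoDS. *Atp5j* had a log2 fold change of −0.20 ± 0.075 (SE), an unadjusted p of 0.0134 and adjusted p = 0.64 in edgeR's quasi-likelihood test with Benjamini-Hochberg adjustment. Its value was −0.17 with complexity as a covariate. The highest of complex V was *Atp5k*, subunit e, with 1415, 1358, 1365, 1727 and 1896 reads in RC NoDS and 1688, 2186, 1659, 1465 and 1796 in HFD NoDS. The groups overlapped, with HFD NoDS replicate 20 the highest. *Atp5k* had a log2 fold change of 0.20 ± 0.11 (SE), which was 0.099 without that library and 0.04 with complexity as a covariate. The median of complex V was 0.018, with the other sign in 4 of 34 alternatives.

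Between the switched groups the lowest of complex V was *Atp5g2*, which encodes subunit c of the membrane ring and had the only unadjusted p under 0.05 that edgeR gave for the 78 subunits in that comparison. It had 418, 403, 506, 358 and 404 reads in HFD → RC and 453 to 548 reads (median 485) in RC → HFD. In RC NoDS it had 483, 412, 503, 493 and 491 reads and in HFD NoDS 479, 459, 377, 413 and 448. Apart from replicate 15, HFD → RC libraries lay below all of RC → HFD. *Atp5g2* had a log2 fold change of −0.25 ± 0.11 (SE), an unadjusted p of 0.0299 and adjusted p = 0.899 in edgeR's quasi-likelihood test with Benjamini-Hochberg adjustment. The highest was *Atp5o*, which joins the outer stalk to the catalytic head, with a log2 fold change of 0.12 ± 0.063 (SE). The median of complex V was 0.025, with the other sign in 1 of 34 alternatives.

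**Figure D3:**
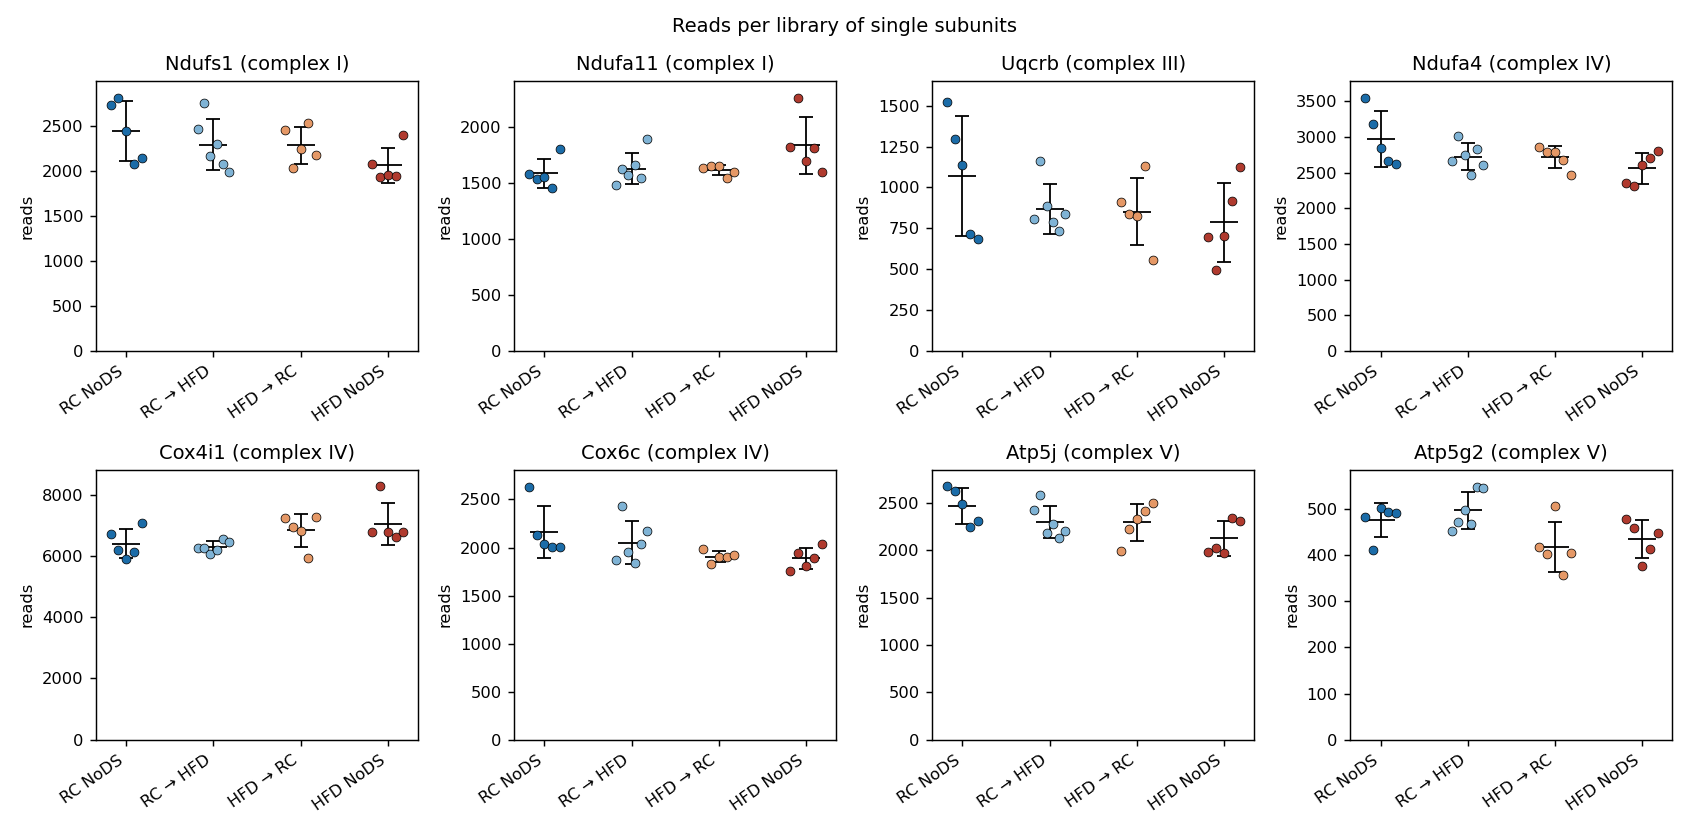
Reads per library (vertical axis from 0) of 8 of the subunits with an unadjusted p under 0.05 in HFD NoDS relative to RC NoDS or in HFD → RC relative to RC → HFD. Not all such subunits are shown. There is 1 point per library, with the mean ± SD of each group. In each panel the points of HFD NoDS and RC NoDS overlap.

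Several subunits exist in forms typical of other tissues, and these were scarce in the hypothalamus. *Cox4i2*, the form of lung that rises in hypoxia, had 39.5 reads per kb beside 9771 of *Cox4i1*. *Cox6a2*, the form of heart and skeletal muscle, had 108 reads per kb beside 5214 of *Cox6a1*. *Cox6b2*, the form of testis, had 90.1 reads per kb beside 6483 of *Cox6b1*. The other complex IV forms showed the same order of levels. *Cox7a1*, a form of muscle, had 92.8 reads per kb beside 2803 of *Cox7a2*. *Cox8b*, also of muscle, had 3.20 reads per kb beside 9122 of *Cox8a*. *Ndufa4l2*, a relative of *Ndufa4* that rises in hypoxia, had 36.7 reads per kb beside 5572 of *Ndufa4*. The 3 genes for subunit c, which encode the same mature protein, were all expressed: *Atp5g3* had 5377 reads per kb, *Atp5g1* 2560.4 and *Atp5g2* 709. Libraries of the 4 groups overlapped for *Atp5g1* and *Atp5g3*, with 4029.6 ± 295 reads (mean ± SD) of *Atp5g3* in RC NoDS and 3818 ± 257 in HFD NoDS, and 1759 ± 98.9 and 1753 ± 163 of *Atp5g1*.

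The remaining pairs of groups share libraries with those already given. RC → HFD relative to RC NoDS, the acute change to HFD, gave 0 subunits called by edgeR, beside 0.0392% of all genes, and 0 at an unadjusted p under 0.05, beside 6.51% of all genes. DESeq2 and limma-voom also gave 0 subunits of either kind, while they called 96 and 5 of all genes, beside 5 by edgeR. No subunit had libraries that did not overlap, beside 1.15% of all genes. 36 subunits were higher and 42 lower, with a median of −0.0052 beside −0.00094 over all genes. HFD → RC relative to HFD NoDS, the acute return to RC, gave 0 called by edgeR, beside 0.0705% of all genes, and 2 at an unadjusted p under 0.05 (2.56%, beside 7.93% of all genes; 2 by DESeq2 and 3 by limma-voom, which also called 0). No subunit had libraries that did not overlap, beside 0.971% of all genes. The 2 were *Ndufs6*, with a log2 fold change of −0.30 ± 0.11 (SE), and *Ndufb9*, with 0.20 ± 0.082 (SE). Without the 4 least complex libraries these were −0.15 and 0.13, and *Ndufs6* had −0.19 without HFD NoDS replicate 20. 41 subunits were higher and 37 lower, with a median of 0.0099 beside 0.0047.

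In HFD → RC relative to RC NoDS, groups that ate the same diet at the end, edgeR called 0 subunits, beside 0.282% of all genes, with 2 at an unadjusted p under 0.05 (2.56%, beside 8.1% of all genes; 2 by DESeq2 and 1 by limma-voom, which also called 0). *Cox6b1* had 3365, 3076, 3148, 2830 and 3191 reads in RC NoDS and 3610, 3304, 3439, 3184 and 3720 in HFD → RC. HFD → RC replicates 14 and 16 lay below RC NoDS replicate 1, and the other 3 lay above all RC NoDS libraries. *Cox6b1* had a log2 fold change of 0.17 ± 0.061 (SE) and *Ndufb9* of 0.17 ± 0.082 (SE), with adjusted p = 0.392 and 0.614 in edgeR's quasi-likelihood test with Benjamini-Hochberg adjustment. Without HFD → RC replicate 16, *Ndufb9* had 0.24 and adjusted p = 0.167, the smallest adjusted p of any subunit over all tests and settings in edgeR's quasi-likelihood test with Benjamini-Hochberg adjustment, and it had 0.098 without the 4 least complex libraries. 43 subunits were higher and 35 lower, with a median of 0.019 beside −0.00011 over all genes.

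In HFD NoDS relative to RC → HFD, which both ate HFD at the end, edgeR called 0 subunits, beside 0.0157% of all genes, with 3 at an unadjusted p under 0.05 (3.85%, beside 7.49% of all genes; 3 also by DESeq2 and 3 by limma-voom, which called 0). No subunit had libraries that did not overlap after scaling, beside 0.728% of all genes. The 3 were higher in HFD NoDS: *Cox4i1* with a log2 fold change of 0.16 ± 0.066 (SE), *Ndufa1* with 0.21 ± 0.094 (SE) and *Ndufv3* with 0.19 ± 0.082 (SE). After the trend on length and GC content was removed, *Cox4i1* had 0.082 and *Ndufv3* 0.11, and without HFD NoDS replicate 20 *Cox4i1* had 0.087. *Ndufa1*, an accessory subunit of the membrane arm encoded on the X chromosome, and *Ndufv3*, an accessory subunit of the NADH-oxidising arm, are named because of these values, which had been seen. 42 subunits were higher and 36 lower, with a median of 0.004 beside −0.0012 over all genes.

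A test over all 4 groups called 0 subunits with edgeR, beside 0.149% of all genes, and 0 had an unadjusted p under 0.05, beside 7.97% of all genes (2 by DESeq2 and 0 by limma-voom, which also called 0). Read as 2 factors, the diet eaten at the end called 0 subunits, beside 0.047% of all genes, with 0 at an unadjusted p under 0.05, beside 5.22% (0 by DESeq2 and 0 by limma-voom). The diet eaten earlier called 0 with edgeR, beside 0.0705% of all genes, and had 6 subunits at an unadjusted p under 0.05 (7.69%, beside 7.27% of all genes; 6 by DESeq2 and 6 by limma-voom, which called 0). Of the 6, *Cox4i1* (0.14), *Cox6b1* (0.11), *Ndufv3* (0.13) and *Atp5o* (0.098) were higher after HFD by log2 fold change, and *Cox6c* (−0.14) and *Atp5g2* (−0.18) were lower. *Cox4i1* had the smallest p of these, 0.00708 before adjustment, with adjusted p = 0.565 in edgeR's quasi-likelihood test with Benjamini-Hochberg adjustment. With complexity as a covariate *Cox4i1* had 0.083 and *Ndufv3* 0.085. The interaction of both diets called 0 with edgeR, beside 0.0313% of all genes, with 1 subunit at an unadjusted p under 0.05 (1.28%, beside 8.84% of all genes; 1 by DESeq2 and 1 by limma-voom, which called 0). That gene was *Cox7a2l*, with a value of 0.24 ± 0.11 (SE) on the log2 scale. It was chosen after its values were seen.

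Genes that assemble, feed and regulate the complexes were looked at as 4 measurable lists. Of each, 0 genes were called by edgeR, DESeq2 or limma-voom in either study comparison. Among all genes, the share at an unadjusted p under 0.05 by edgeR was 7.41% in HFD NoDS relative to RC NoDS and 5.35% between the switched groups. Among 30 of 35 assembly factors that averaged 50 or more reads, 16 were higher and 14 lower in HFD NoDS than in RC NoDS, with a median of 0.003 and 0 at an unadjusted p under 0.05 by each of the 3 tools. *Ndufaf4*, an assembly factor of complex I, had the smallest p, with 272 ± 39.5 reads (mean ± SD) in RC NoDS, 211 ± 30.6 in HFD NoDS and a log2 fold change of −0.35 ± 0.19 (SE), which was −0.20 after the trend on length and GC content was removed. Between the switched groups, 2 had an unadjusted p under 0.05 (2 by DESeq2 and 2 by limma-voom). The smaller was that of *Bcs1l*, which inserts the Rieske protein into complex III, with 428 ± 38.3 reads in RC → HFD, 337 ± 56.7 in HFD → RC, a log2 fold change of −0.35 ± 0.12 (SE) and adjusted p = 0.876 in edgeR's quasi-likelihood test with Benjamini-Hochberg adjustment. Without the 4 least complex libraries its log2 fold change was −0.21.

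Of 17 genes for electron carriers and exchange across the inner membrane, 16 were tested. With each of the 3 tools 1 had an unadjusted p under 0.05 in each comparison. Among all genes, edgeR gave such a p to 7.41% in HFD NoDS relative to RC NoDS and to 5.35% between the switched groups. In HFD NoDS relative to RC NoDS, *Etfa*, the α subunit of the flavoprotein that brings electrons from fatty acid oxidation to coenzyme Q, had 491 ± 65.5 reads (mean ± SD) in RC NoDS and 366 ± 35.2 in HFD NoDS. Its log2 fold change was −0.41 ± 0.19 (SE), and −0.14 with complexity as a covariate. In HFD → RC relative to RC → HFD, *Etfb*, the β subunit, had 795 ± 71.8 reads in RC → HFD, 998 ± 219.8 in HFD → RC and a log2 fold change of 0.33 ± 0.12 (SE), which was 0.19 without HFD → RC replicate 17. All 12 genes of coenzyme Q synthesis were tested, and 0 had an unadjusted p under 0.05 in either comparison with any of the 3 tools. The smallest p belonged to *Coq10a*, which binds coenzyme Q, in HFD NoDS relative to RC NoDS (0.20 ± 0.12 (SE) log2 fold change), and to *Adck3*, needed to make it, between the switched groups (0.16 ± 0.13 (SE)). *Coq10a* had 0.11 without HFD NoDS replicate 20 and 0.034 with complexity as a covariate. *Adck3* ranged from 0.034 to 0.26 when 1 library was left out, and was 0.36 without the 4 least complex. Of 21 regulators of mitochondrial biogenesis 17 were tested, with 0 at an unadjusted p under 0.05 in HFD NoDS relative to RC NoDS and 1 between the switched groups by each tool. The latter was *Tfb2m*, a mitochondrial transcription factor, with 96.2 ± 16 reads in RC → HFD, 139 ± 20.8 in HFD → RC and a log2 fold change of 0.53 ± 0.20 (SE). *Peo1*, the mitochondrial helicase, had the smallest p in the former comparison, with a log2 fold change of 0.25 ± 0.18 (SE), and 0.15 without HFD NoDS replicate 23.

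Markers of oligodendrocytes, the cells that make myelin, were listed to describe the tissue. All 10 were higher in HFD NoDS than in RC NoDS (median log2 fold change 0.54, 10 at an unadjusted p under 0.05 by edgeR, 7 by DESeq2 and 6 by limma-voom, 0 called by each), and all 10 in HFD → RC relative to RC → HFD (median 0.59, 9 at an unadjusted p under 0.05 by edgeR, 8 by DESeq2 and 8 by limma-voom, 0 called by each). In HFD → RC relative to RC NoDS 5 of the 10 passed edgeR's test at an adjusted p under 0.15, beside 0.282% of all genes, all of them higher and *Ermn*, *Mal*, *Mbp* and *Mobp* among them; DESeq2 called 5, among 147 of all genes, and limma-voom 0, among 7. In RC → HFD relative to RC NoDS and in HFD NoDS relative to RC → HFD all 10 were also higher, with 0 at an unadjusted p under 0.05 by each tool. Among all genes, edgeR gave an unadjusted p under 0.05 to 7.41% in HFD NoDS relative to RC NoDS and to 5.35% between the switched groups. The 10 markers summed to 39920, 46248, 57512, 40291 and 59067 reads in the libraries of RC NoDS and 61123, 102868, 55629, 100455 and 48036 in HFD NoDS. They summed to 108657, 144277, 83970, 48422 and 68082 reads in HFD → RC and 46567 to 67878 (median 53234) in RC → HFD. The most abundant was *Mbp*, a protein of the myelin sheath, with a mean of 31250.7 reads, and no marker of the list was at 0. Libraries of HFD → RC and HFD NoDS reached the highest sums, and libraries of all groups overlapped. Neuronal markers summed to 66635 ± 2346 reads (mean ± SD) in RC NoDS, 71167 ± 3335 in RC → HFD, 69722 ± 3655 in HFD → RC and 68763 ± 2228 in HFD NoDS. The part of cell composition in the values of the subunits was not tested.

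Other marker lists are given by their median log2 fold change in HFD NoDS relative to RC NoDS. It was 0.047 for neurons, 0.029 for astrocytes, 0.23 for microglia, 0.053 for endothelium and pericytes and 0.11 for ependyma and tanycytes. It was −0.23 for choroid plexus and −0.64 for blood. For the 4 pituitary markers it was −1.94, with a median standard error of 1.43; among them *Gh* and *Prl*, named after their values were seen, had a median of 2 reads or fewer in each of the 4 groups. There were 0 genes of these 8 lists called in this comparison by edgeR, DESeq2 or limma-voom. At an unadjusted p under 0.05 there were 4 neuronal, 3 astrocyte, 4 microglial, 1 ependymal and 1 blood marker by edgeR, 4, 3, 4, 1 and 0 by DESeq2, and 4, 3, 4, 0 and 2 by limma-voom, which also had 1 endothelial or pericyte marker. Among all genes, edgeR gave such a p to 7.41% in HFD NoDS relative to RC NoDS. Medians between the switched groups were −0.025 for neurons, 0.083 for astrocytes, 0.15 for microglia, 0.0056 for endothelium and pericytes, 0.087 for ependyma and tanycytes, −0.24 for choroid plexus and −0.98 for pituitary, again with 0 genes of these lists called by any of the 3 tools. All 5 blood markers were higher in HFD → RC than in RC → HFD (median 0.91, 5 at an unadjusted p under 0.05 by edgeR beside 5.35% of all genes, 4 by DESeq2 and 1 by limma-voom, 0 called by each). Their reads summed to 6760, 2361, 2664, 676 and 3537 in the HFD → RC libraries and 1057 to 2122 in RC → HFD. HFD → RC replicate 13 was the highest, and replicate 16 lay below all of RC → HFD. In RC → HFD relative to RC NoDS all 5 blood markers were lower (median −1.18), with 5 at an unadjusted p under 0.05 and 0 called by each of the 3 tools. Of all genes, 6.51% had an unadjusted p under 0.05 by edgeR. For all 5 the libraries did not overlap, beside 1.15% of all genes. In this last comparison 6 of 9 ependymal and tanycyte markers had an unadjusted p under 0.05 by edgeR (5 of them lower; median −0.39 over the list), as did 4 of 11 neuronal markers, all higher; edgeR called 0 of either list and DESeq2 called 1 neuronal marker. Of the 12 tested genes listed for the ventral hypothalamus, 4 passed edgeR's test in HFD NoDS relative to RC NoDS, beside 0.0783% of all genes, with 2 higher and 2 lower. DESeq2 called 4, among 17 of all genes, and limma-voom 3, among 10. The list holds the lateral gene *Hcrt*, with 74.4 ± 29.55 reads (mean ± SD) in RC NoDS and 201.7 ± 127.1 in RC → HFD. It had 272.6 ± 136.2 reads in HFD → RC and 477.6 ± 430.1 in HFD NoDS. The part of lateral tissue in these values was not tested. For the switched groups edgeR called 1 of the 12 listed genes, beside 0.00783% of all genes, and it was the only gene called. DESeq2 called 2, among 5 of all genes, and limma-voom 1, with no other gene called.

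Members shared features that the choice by symbol did not use. Their transcripts were short, with a median length of 701 bases beside 2432 over all genes tested, and abundant, with a median of 1912.5 mean reads beside 567.4. GC content was a median of 52.3% beside 51.2%. Reads of the subunits varied little within groups, with a median coefficient of variation of 8.98% beside 14.2% over all genes, from 2.93% for *Atp5a1* to 41.7% for *Cox6a2*. By complex the median was 9.36% for I, 7.69% for II, 9.75% for III, 8.45% for IV and 8.95% for V. Abundant genes have less counting error, and its share in this spread was not tested. The members lay on 19 chromosomes, with at most 7 on 1 chromosome, chromosome 7. Exons of 17 members overlapped exons of a gene on the opposite strand, as *Atp5j* with *Gabpa* and *Cox6c* with *Vps13b*. Exons of 3 members overlapped exons on the same strand: *Atp5o* with *Donson*, *Ndufb2* with *Adck2* and *Ndufb8* with another entry of that symbol. The part of such overlaps in the read counts was not tested.

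Single libraries were high or low for many subunits together. The median deviation of the 78 subunits from their own means over all libraries was 0.11 on the log2 scale in RC → HFD replicate 12, where 63 subunits lay above their mean. It was 0.081 in HFD NoDS replicate 20, with 53 above. At the other end it was −0.098 in HFD → RC replicate 16, with 20 above, and −0.084 in RC NoDS replicate 2, with 26 above. The highest and the lowest libraries thus came from different groups, and each group held libraries on both sides of 0, though in RC → HFD only replicate 12 lay above it. The fewest subunits above their mean, 18, were in RC → HFD replicate 9. Of single libraries, HFD NoDS replicate 20 held the highest value of 20 subunits and RC NoDS replicate 1 that of 14, while RC NoDS replicate 2 held the lowest value of 14.

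Promoters of the members were read for letters known to be bound by regulators of nuclear genes for mitochondria. Windows from 250 bases before to 50 after the gene start (RefSeq, build GRCm38.p6) were at hand for 65 of the 78 members, 71 windows in all, and each motif was searched on both strands. The core of NRF1 sites, GCGCATGC, was in 12.7% of the members' windows, in 4.96% of windows of genes averaging 50 or more reads and in 2.71% of all 32851 windows. CCGGAAG, bound by ETS factors such as GABPA, was in 21.1%, 16% and 8.86%. AAGATGG, bound by YY1, was in 18.3%, 6.87% and 6.34%. At least 1 of the 3 was in 45.1% of the members' windows, 25.2% and 16.6%, and by complex in 41.2% for I, 66.7% for II, 60% for III, 40% for IV and 47.4% for V. A match is a description of letters, and its part in transcription was not tested.

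The windows of 5 members held motifs of 2 kinds, and the stretch from the first to the last motif, with 15 bases on either side, is printed for each because these are the promoters where the motifs lie together. Capitals mark the motifs, on either strand, and where NRF1 cores on both strands overlap they read GCGCATGCGC. Each is written 5′ to 3′ on the strand of the gene. *Sdhb* (complex II) is given from chr4:140961202-140961298, plus strand. *Uqcr11* (complex III) is given from chr10:80406803-80406902, minus strand. *Cox6a1* (complex IV) is given from chr5:115348953-115349135, minus strand. *Atp5j* (complex V) is given from chr16:84835016-84835079, minus strand. *Atp5k* (complex V) is given from chr5:108434366-108434464, minus strand.
Sdhb: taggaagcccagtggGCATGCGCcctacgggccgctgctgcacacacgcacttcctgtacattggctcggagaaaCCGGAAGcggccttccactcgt
Uqcr11: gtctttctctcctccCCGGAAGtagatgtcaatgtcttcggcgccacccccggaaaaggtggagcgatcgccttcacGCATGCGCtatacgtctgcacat
Cox6a1: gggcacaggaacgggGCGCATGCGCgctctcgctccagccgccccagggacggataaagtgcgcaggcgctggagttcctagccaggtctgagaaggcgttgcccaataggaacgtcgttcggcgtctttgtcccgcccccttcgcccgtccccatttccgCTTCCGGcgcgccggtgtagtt
Atp5j: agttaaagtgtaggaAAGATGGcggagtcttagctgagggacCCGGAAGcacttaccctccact
Atp5k: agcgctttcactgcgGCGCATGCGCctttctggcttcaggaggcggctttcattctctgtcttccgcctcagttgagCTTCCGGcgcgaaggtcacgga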

How the data were processed

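The deposited values are read counts per gene, as whole numbers. The authors made them from single-end, stranded, polyA-enriched libraries by merging runs with Picard 2.7.1, aligning with STAR 2.5.1b to mm9, and re-sampling each library to a common depth with PORT. How reads that map to several places were counted is not stated. Genes averaging 50 or more reads were tested in R 4.3.3 with edgeR 4.0.16 (TMM scaling, quasi-likelihood test, 1 mean for each of the 4 groups over all 21 libraries). P-values were adjusted over all 12768 genes by Benjamini-Hochberg, with a threshold of 0.15, in 10 tests: 6 pairs of groups, all 4 groups, the earlier diet, the diet at the end, and their interaction. The procedure was tested on simulated data, with log2 fold changes of 1 or 0.5 in either direction put into HFD NoDS. Relative to RC NoDS it recovered 88 of 100 genes changed by 1 and 51 of 100 changed by 0.5, with 27 false calls. Smaller changes were not simulated. DESeq2 1.42.0 and limma 3.58.1 were run as alternatives. Others were other scalings (library totals, upper quartile, RLE), lower read minimums (5 on average, or 1 in all), robust dispersion, the compared groups alone, complexity as a covariate, reads summed by symbol, removal of trends on transcript length and GC content, *Ndufa4* counted in complex I, and each library left out in turn. A fit without the 4 least complex libraries was added after seeing the data. It left out RC → HFD replicate 12, HFD → RC replicates 14 and 17 and HFD NoDS replicate 20, and no library of RC NoDS. Levels per kb used the median length of a gene's protein-coding transcripts. Tables and plots were made with Python 3.11.15, pandas 2.3.3, numpy 2.4.6 and matplotlib 3.10.9.

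The members and lists were chosen with earlier results of these data known. Genes were named by a rule: any called member, the highest and lowest of each complex in HFD NoDS relative to RC NoDS and in HFD → RC relative to RC → HFD, the catalytic or central subunits, the sets of tissue forms, and, in each of 5 lists of other genes of the pathway (assembly factors, electron carriers and exchange, coenzyme Q synthesis, regulators of mitochondrial biogenesis, mitochondrial DNA-encoded subunits), the gene with the smallest p in each of these comparisons. Other subunits with an unadjusted p under 0.05 were named after their values were seen. Marker genes of 10 cell types or tissues were listed to describe the samples.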

Additional observations from a re-analysis of the deposited data

Results flagged for a closer look

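In 26 of the 212 groups of values looked at (53 series of reads, each in 4 diet groups), 1 library lay far from the others of its group, measured by its gap to the nearest value over the range of the group. Chance gives about 1 in 20 groups, and the series are not independent, since genes of a library and sums over them share its reads. RC → HFD replicate 12 was the highest of its group in 6 series: *Atp5g1* with 2133 reads (others 1653 to 1726), *Cox8a* with 5285 (4495 to 4761), *Ndufs6* with 1344 (993 to 1107), *Sdhb* with 2621 (2212 to 2311), *Sdhc* with 2290 (1686 to 1891) and *Uqcrc1* with 4830 (4218 to 4406). RC → HFD replicate 8 was the highest for *Uqcrb* with 1164 reads (734 to 886). RC NoDS replicate 2 was the lowest of its group for *Atp5g1* with 1584 reads (1785 to 1820), *Atp5g2* with 412 (483 to 503) and *Cox6a1* with 2412 (2971 to 3144). RC NoDS replicate 1 was the highest for *Cox6c* with 2632 reads (2004 to 2134), and RC NoDS replicate 6 for *Cox6b2* with 117 (46 to 62). HFD NoDS replicate 20 was the highest of its group for *Cox4i1* with 8285 reads (6631 to 6794) and *Cox6a1* with 3660 (2832 to 2945). HFD NoDS replicate 24 was the highest for *Atp5b* with 20494 reads (19418 to 19552), and HFD NoDS replicate 19 the lowest for *Atp5c1* with 2723 (3257 to 3434). HFD → RC replicate 16 was the lowest of its group for the summed reads of complex I with 53811 (59148 to 59873), for those of all subunits with 186311 (198800 to 202400) and for *Sdhc* with 1732 reads (2063 to 2104). HFD → RC replicate 17 was the lowest for the summed reads of complex II with 13781 (14673 to 15011), for *Sdha* with 8143 (8949 to 9263) and for *Ndufv2* with 1947 (2036 to 2064). HFD → RC replicate 13 was the highest for *Ndufa4l2* with 84 reads (33 to 42). *Cox8b*, near 0 in most libraries, had 7 reads in RC NoDS replicate 2 (0 to 1 in the others), 1 in RC → HFD replicate 8 and 8 in HFD NoDS replicate 23, with 0 in all others of these latter groups.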

How the results depend on the processing

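The count of subunits called stayed 0 in each of the 336 values obtained over 10 tests and the alternative settings and left-out libraries, and the smallest adjusted p was 0.167 (Benjamini-Hochberg, edgeR's quasi-likelihood test). Log2 fold changes of 65 pairs of a gene and a test, which include those printed, were followed; of their 2201 values under alternatives, 21 had the other sign, in 7 of the pairs, and 0 passed the threshold. Some alternative moved 49 of these pairs by more than 1.5 times or to the other sign. In HFD NoDS relative to RC NoDS, the log2 fold change of *Ndufv1*, 0.049, was −0.020 with complexity as a covariate, −0.018 after removal of the trend on length and GC content and −0.044 without the 4 least complex libraries. That of *Sdha* was 0.044 and 0.017 in the first and second of these fits, and that of *Cox6a2*, 0.087, was −0.048 in the last. Leaving out 1 library gave −0.044 to 0.099 for *Ndufv1*, −0.0018 to 0.09 for *Sdhb*, −0.11 to 0.26 for *Cox6a2*, −0.031 to 0.0097 for *Atp5a1* and 0.0095 to 0.048 for *Atp5b*. In HFD → RC relative to RC → HFD, *Sdhb* was 0.032 without the 4 least complex libraries. Without 1 library the values between the switched groups were −0.04 to 0.055 for *Ndufs1*, 0.063 to 0.16 for *Sdhc*, 0.08 to 0.17 for *Cox7a2* and −0.92 to −0.38 for *Cox6a2*, and *Ndufs1*, at −0.003, had 0.042 with complexity as a covariate, 0.041 without the 4 least complex libraries and 0.00047 with limma-voom. Medians of the 78 subunits ranged from −0.025 to 0.021 in HFD NoDS relative to RC NoDS and from −0.0029 to 0.041 between the switched groups, within the spread between libraries of 0.058. The spread was 0.052 in complex V, 0.062 in I, 0.065 in IV, 0.068 in II and 0.084 in III. Medians moved by more than the spread of their own complex for complex IV in RC → HFD relative to RC NoDS (0.029 after the trend on length and GC content was removed), for complex V in HFD → RC relative to RC NoDS (−0.029 with complexity as a covariate), and for complex IV in HFD NoDS relative to RC NoDS (−0.044 without HFD NoDS replicate 20 or the 4 least complex libraries, and −0.016 without HFD NoDS replicate 23). The cause was not tested. At this depth and number of libraries, subunits with few reads such as *Cox6a2* had standard errors too wide to show small differences. No paired analysis was possible because replicate numbers are not shared between groups.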
